A study of Mus musculus with 24 samples.

Results

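Gm43305, Rps4l, Msl3l2, Gm37065, Gm42047 and Ankle1 are 6 of the 55414 genes counted in this series. They were chosen by their read counts, which differed between Srcap mutant and WT libraries in more than 1 condition or cell label, so the differences between genotypes are given below as a description, with no test. Their standard errors (SE) and the ranges with 1 library left out come from the values that chose the genes. They therefore lend those differences no support. The set holds a long RNA of unknown role (Gm43305), a retrocopy of a ribosomal protein gene (Rps4l), a relative of a histone acetyltransferase subunit (Msl3l2), an RNA opposite the receptor gene Slamf6 (Gm37065), an intergenic RNA (Gm42047) and a DNA-cutting enzyme (Ankle1). The choice held to different degrees. Rps4l was lower in both mutant libraries than in both WT libraries in all 6 combinations of cell label and condition, while Gm42047 and Ankle1 were separated in one direction in 2 of them and in the other direction in 1.

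The series has 24 poly(A) RNA libraries from C57BL6/J mouse bone marrow. The genotype is WT or Srcap mutant. The file headers give the mutant as het for untreated, doxorubicin and 20-week libraries and as Mut for 2-week libraries, without naming the allele. Hematopoietic stem and progenitor cells (HSPCs) are named LSK in the file headers. HSPCs were sampled untreated (called germline in the labels) and 12 hours after intraperitoneal doxorubicin (IP in the labels). They were also sampled 2 weeks after transplantation and 20 weeks after competitive transplantation, where the series' text names CD45.2+ donor cells. B cells and T cells were sampled at 2 weeks. Each of these 12 groups has 2 libraries. The labels name no age of the animals. Nothing in the labels says how many animals a library came from, so the p-values below measure only the spread between these libraries.

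Total counts per library ran from 26369992 to 78432483. HSPC libraries carried Kit at 311 to 601 CPM (the count of a gene over the total count of its library, times 1000000) and B cell libraries Cd79a at 1030 to 1350 CPM. The 4 libraries labelled T cells did not carry T cell transcripts: Cd3e was at 0.0883 to 1.56 CPM, while a list of 8 neutrophil genes, among them S100a8, took 12.2% to 14.2% of the counts. They are called T-labelled below. In 20-week HSPCs a list of 8 B cell genes took 4.77% to 9.28% of the counts, more than the 1.56% to 1.95% in the B cell libraries. Cd79a, a gene of that list, went the other way, at 155 to 352 CPM in untreated, doxorubicin and 20-week HSPCs. The sum over the list therefore does not measure the share of B cells. Plasma cell genes took 1.11% to 1.67% in 20-week HSPCs. One WT untreated HSPC library (replicate 1) held 2.13% of its counts in those neutrophil genes, against at most 0.0561% in the other untreated and doxorubicin libraries. All 2-week libraries carried Xist (320 to 1540 CPM) and at most 0.0194 CPM of the Y-linked gene Ddx3y, whereas the other 12 carried at most 0.484 CPM of Xist and Ddx3y at 32.6 to 124 CPM, and the headers place the 2-week, the 20-week and the remaining files in 3 directories. Sex, file directory and transplantation therefore cannot be told apart in the comparison of 2-week with untreated HSPCs. The name of the mutant in the headers, het or Mut, changes with them. Genotype differences averaged over the 4 HSPC conditions join both names. In the comparison of 20-week with untreated HSPCs, which carry the same sex markers, file directory and transplantation cannot be told apart. Srcap itself ran from 2.83 to 20.3 CPM, and its fitted log2 difference, mutant minus WT, was 0.05 ± 0.18 (SE) over the 4 HSPC conditions (edgeR quasi-likelihood test, Benjamini-Hochberg adjusted p = 1.0). The ratio of mean CPM, mutant over WT, was 1.48 in untreated, 1.16 in doxorubicin, 0.878 in 2-week and 0.809 in 20-week HSPCs. As the allele is not named, a count over the whole gene does not check the mutation.

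SRCAP is an ATPase that exchanges H2A for the variant histone H2A.Z in nucleosomes at promoters and enhancers, and the title of the series concerns clonal hematopoiesis. Catalogues of transcripts hold many models of little known function: retrocopies, which arise when a messenger RNA is copied back into DNA, antisense RNAs, and intergenic RNAs. Such models are often expressed at a low level, so that sampling noise and the sharing of reads with a related gene weigh more on them than on most protein-coding genes.

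The positions that follow are those of the deposited counts (GRCm39). Gm43305 (ENSMUSG00000105703) is at chr14:54529900-54534913 on the minus strand and is counted as 1 block of 5014 bases. Rps4l (ENSMUSG00000063171) is at chr6:148256154-148257096 on the plus strand, 1 block of 943 bases, annotated as a transcribed processed pseudogene. Msl3l2 (ENSMUSG00000047669) is at chr10:55983013-55992976 on the plus strand and is protein-coding, with 2 exon blocks and 2140 exonic bases. Gm37065 (ENSMUSG00000104413) is at chr1:171737524-171746923 on the minus strand, an antisense RNA with 4 blocks and 2117 bases. Gm42047 (ENSMUSG00000110631) is at chr8:122559986-122567917 on the plus strand, an intergenic RNA with 4 blocks and 5647 bases. Ankle1 (ENSMUSG00000046295) is at chr8:71858654-71862548 on the plus strand and is protein-coding, with 7 blocks and 2558 bases. Ankle1 and Gm42047 share a chromosome at a distance of 50.7 Mb.

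Rps4l is the member whose counts could most easily be mixed with those of another gene, since it derives from the abundant ribosomal protein gene Rps4x. The first 120 bases of the open frame of each transcript are shown to let the difference be seen, with the bases that differ in capitals (GENCODE M21 transcripts, 5′ to 3′).
Rps4l: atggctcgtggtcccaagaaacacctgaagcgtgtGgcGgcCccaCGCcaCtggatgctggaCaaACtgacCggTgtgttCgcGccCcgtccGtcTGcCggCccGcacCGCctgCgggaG
Rps4x: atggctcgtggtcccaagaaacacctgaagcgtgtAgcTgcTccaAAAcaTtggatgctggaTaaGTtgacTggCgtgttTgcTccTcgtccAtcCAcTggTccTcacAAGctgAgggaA
In this stretch 26 bases differed. Over the 811 aligned bases of the transcripts the identity was 80.0%, the longest run shared without a mismatch was 38 bases, and none of the 894 windows of 50 bases in the Rps4l transcript occurred in that of Rps4x. Although annotated as a pseudogene, Rps4l kept an unbroken frame of 262 codons, against 263 in Rps4x. Msl3l2 likewise differed from its X-linked relative Msl3, with 77.2% identity over the 798 bases that align. The longest shared run was 32 bases, and 0 of 2091 windows of 50 bases were in common. A single transcript of each gene was compared, other copies in the genome were not searched, and the alignment settings are not stated. Whether reads of related genes were counted for Rps4l or Msl3l2 was therefore not tested.

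Promoter windows, 250 bases before to 50 bases after the start site, were found in the RefSeq table (GRCm38.p6) for 4 of the 6 genes; Rps4l and Gm42047 had no entry. They are shown because no other readout of these promoters was used here and the letters are what can be compared. Capitals mark matches, on either strand, to TATAAA (the TATA box, in 13.6% of 32851 such windows), CCAAT (37.4%), GGGCGG (the GC box, 35.7%) and TTTGAA (letters of the cell cycle homology region, 17.9%).
Gm43305, chr14:54297439-54297738, minus strand: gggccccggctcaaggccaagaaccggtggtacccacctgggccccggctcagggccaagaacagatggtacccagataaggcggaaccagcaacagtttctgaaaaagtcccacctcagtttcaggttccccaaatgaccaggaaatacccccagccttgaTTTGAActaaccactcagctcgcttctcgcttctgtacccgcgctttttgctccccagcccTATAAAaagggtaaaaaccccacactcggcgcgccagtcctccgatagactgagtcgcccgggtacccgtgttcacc
Msl3l2, chr10:56106667-56106966, plus strand: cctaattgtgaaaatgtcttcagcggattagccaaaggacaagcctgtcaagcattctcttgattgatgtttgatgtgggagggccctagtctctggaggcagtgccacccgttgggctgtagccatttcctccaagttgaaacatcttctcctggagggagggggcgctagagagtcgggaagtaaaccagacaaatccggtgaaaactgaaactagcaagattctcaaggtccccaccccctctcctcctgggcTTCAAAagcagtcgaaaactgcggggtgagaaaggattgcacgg
Gm37065, chr1:171919307-171919606, minus strand: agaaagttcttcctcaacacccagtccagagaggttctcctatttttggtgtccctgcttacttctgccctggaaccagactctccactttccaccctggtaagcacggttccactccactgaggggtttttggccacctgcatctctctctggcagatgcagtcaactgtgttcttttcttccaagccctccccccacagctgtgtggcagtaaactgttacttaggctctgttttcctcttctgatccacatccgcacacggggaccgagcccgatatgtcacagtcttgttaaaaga
Ankle1, chr8:71405762-71406061, plus strand: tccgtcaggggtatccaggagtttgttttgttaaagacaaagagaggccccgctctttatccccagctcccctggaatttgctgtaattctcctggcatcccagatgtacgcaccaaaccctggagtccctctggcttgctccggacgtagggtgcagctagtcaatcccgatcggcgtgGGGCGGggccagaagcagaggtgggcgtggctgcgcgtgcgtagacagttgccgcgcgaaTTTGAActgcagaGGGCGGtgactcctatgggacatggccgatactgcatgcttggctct
Of these 4 windows, that of Gm43305 held the TATA letters, and that of Ankle1 held the GC box letters at 2 places. The TTTGAA letters, on one strand or the other, were in 3 of the 4 windows. The Gm37065 window held none of the 4 motifs, and CCAAT was in none of the 4 windows.

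Rps4l was lower in the mutant in every set of 4 libraries that share a cell label and condition. In untreated HSPCs it was at 3.15 and 3.87 CPM in WT and 1.52 and 1.46 in mutant libraries, and after doxorubicin at 3.74 and 5.84 in WT against 1.14 and 0.92. In 2-week HSPCs, WT libraries stood at 8.64 and 8.51 CPM and mutant libraries at 2.33 and 4.55, and at 20 weeks 4.32 and 2.65 against 1.19 and 1.38. In B cells WT libraries had 9.58 and 6.23 CPM and mutant libraries 1.30 and 1.84, and in T-labelled libraries 4.15 and 3.47 against 2.35 and 1.66. The genotypes overlapped in none of the 6 sets, and the ratio of mean CPM, WT over mutant, ran from 1.9 in T-labelled libraries to 5.03 in B cells. The fitted log2 difference, mutant minus WT, was -1.57 ± 0.22 (SE) over the 4 HSPC conditions and -1.70 to -1.48 with any 1 library left out. All of these levels rest on few reads: the sums over 2 libraries were 258 to 796 counts in WT and 115 to 236 in mutant groups.

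Msl3l2 was also lower in the mutant, by a smaller ratio in HSPCs. MSL3, from which its name derives, is a reader subunit of the male-specific lethal complex, which acetylates histone H4. Untreated HSPCs had 15.8 and 15.1 CPM in WT and 11.2 and 10.6 in mutant libraries, and doxorubicin HSPCs 14.2 and 12.3 against 8.52 and 8.51. In 2-week HSPCs, WT libraries were at 9.04 and 8.58 CPM and mutant libraries at 4.52 and 5.76, and the 20-week values 11 and 10 against 7.95 and 6.24. No mutant HSPC library reached the WT libraries of its condition, and WT over mutant ratios of mean CPM lay between 1.42 and 1.71 in the 4 conditions. The fitted log2 difference over them was -0.65 ± 0.12 (SE), and -0.68 to -0.62 with any 1 library left out.

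Outside HSPCs Msl3l2 had few reads. B cells had 1.44 and 0.472 CPM in WT and 0.583 and 0.143 in mutant libraries, which overlap. T-labelled libraries had 1.39 and 1.17 CPM in WT and 0.230 and 0.0174 in mutant libraries, the last of these being 1 count. The T-labelled groups summed to 113 counts in WT and 14 in mutant, and the fitted log2 difference there, -3.29 ± 1.27 (SE), ran from -5.95 to -2.32 as single libraries were left out.

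Gm43305 had the highest ratio of mutant over WT among the 6 genes. In B cells it was at 17.9 and 12.4 CPM in WT and 87.9 and 91.3 in mutant libraries, a ratio of mean CPM of 5.92. In T-labelled libraries it was at 1.35 and 1.39 CPM in WT and 7.54 and 6.45 in mutant libraries, a ratio of 5.11, and in 2-week HSPCs at 2.15 and 2.30 against 8.0 and 10.4, a ratio of 4.15. Thus both mutant libraries stood above both WT libraries in each of the 3 sets taken 2 weeks after transplantation, whatever the overall level of the gene. The headers name the mutant Mut in these 3 sets and het in the other HSPC sets. Sex markers, file directory and sampling at 2 weeks after transplantation change with that name. Their parts in the Gm43305 difference therefore cannot be told apart.

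In the other HSPC sets the Gm43305 difference was smaller or within the spread. At 20 weeks WT libraries stood at 7.38 and 6.09 CPM and mutant libraries at 10.5 and 16.3, a ratio of 1.99 without overlap. Untreated HSPCs had 28.3 and 23.4 CPM in WT and 24.1 and 35.4 in mutant libraries, and doxorubicin HSPCs 31.2 and 32.6 against 57.8 and 31.5. These latter 4 groups overlap within their condition, and the fitted log2 difference for doxorubicin, 0.43 ± 0.28 (SE), ran from -0.09 to 0.82 as single libraries were left out. For 2-week HSPCs, B cells and T-labelled libraries it was 2.07 ± 0.31, 2.56 ± 0.20 and 2.42 ± 0.22.

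Gm37065 was higher in mutant HSPCs of 3 conditions. Untreated HSPCs had 5.72 and 7.89 CPM in WT and 14.4 and 12.4 in mutant libraries, doxorubicin HSPCs 7.53 and 7.52 against 14.5 and 14.9, and 2-week HSPCs 2.37 and 2.99 against 7.89 and 5.61. The ratios of mean CPM, mutant over WT, were 1.97, 1.96 and 2.52. At 20 weeks the genotypes overlapped, with 5.22 and 5.04 CPM in WT and 6.97 and 4.02 in mutant libraries.

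Outside HSPCs Gm37065 differed little between genotypes. B cells, where it was most abundant, had 54.7 and 71.2 CPM in WT and 73.5 and 72.6 in mutant libraries, a ratio of 1.16 with the higher WT library, at 71.2, next to the lower mutant one, at 72.6. T-labelled libraries had 3.50 and 3.89 CPM in WT and 2.44 and 3.02 in mutant libraries, so here the mutant was lower, by a ratio of 0.738. The fitted log2 differences were 0.21 ± 0.17 (SE) in B cells and -0.37 ± 0.19 in T-labelled libraries.

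For Gm42047 and Ankle1 the mutant libraries lay above the WT libraries in untreated and doxorubicin HSPCs. Ankle1 encodes a nuclease with ankyrin repeats and a LEM domain that cuts branched and bridging DNA and is expressed in blood-forming tissue. It was at 14.7 and 18.0 CPM in WT and 25.2 and 26.6 in mutant untreated HSPCs, and at 8.32 and 7.45 in WT and 26.7 and 40.7 in mutant doxorubicin HSPCs. Gm42047 was at 60.5 and 63.8 CPM in WT and 81.8 and 108 in mutant untreated HSPCs, and at 46.7 and 52.8 in WT and 148 and 187 in mutant doxorubicin HSPCs. The doxorubicin sets had the larger ratios of mean CPM, 4.27 for Ankle1 and 3.36 for Gm42047, with fitted log2 differences of 2.03 ± 0.31 and 1.69 ± 0.22 (SE). In doxorubicin HSPCs a list of 8 B cell genes took 2.26% and 2.30% of the counts in WT and 1.47% and 1.03% in mutant libraries, and a list of 8 HSPC genes 0.355% and 0.338% against 0.264% and 0.249%. The part of these marker list differences in the Ankle1 and Gm42047 values was not tested, and in bulk RNA fewer cells of a type and less RNA per cell cannot be told apart.

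In the sets from transplanted animals Ankle1 and Gm42047 showed no such difference. In 2-week HSPCs Ankle1 was at 27.7 and 13.2 CPM in WT and 16.7 and 16.4 in mutant libraries, and Gm42047 at 159 and 89.2 against 93.4 and 92.7, with WT replicate 1 the highest for both. At 20 weeks Ankle1 had 5.91 and 4.31 CPM in WT and 6.20 and 3.79 in mutant libraries, and Gm42047 30.2 and 22.7 against 18.8 and 23.5. In B cells the values were 50.2 and 68.5 against 63.3 and 52.1 for Ankle1 and 223 and 267 against 284 and 211 for Gm42047. In all of these sets the genotypes overlapped. In T-labelled libraries the mutant CPM were lower for both. Ankle1 was at 21.7 and 19.6 in WT and 16.2 and 14.4 in mutant libraries, and Gm42047 at 66.4 and 66.8 against 57.6 and 61.6. The fitted log2 differences there were -0.36 ± 0.17 (SE) for Ankle1 and -0.09 ± 0.13 for Gm42047.

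**Figure D1:**
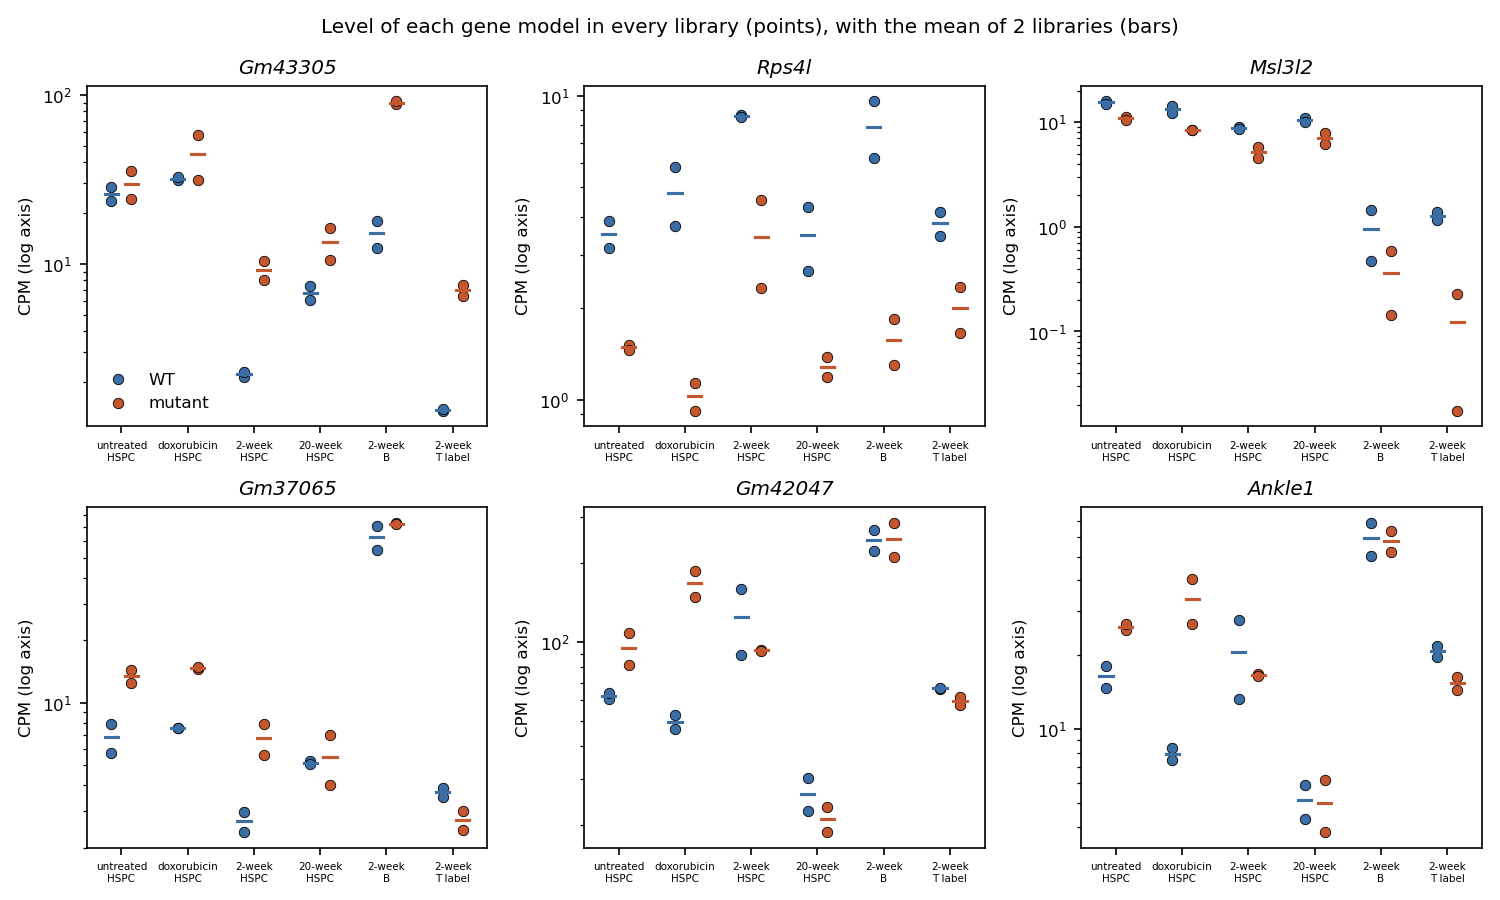
CPM (log axis) of the 6 genes in all 24 libraries, by cell label and condition, with WT in blue and mutant in orange; each point is a library and each bar the mean of 2 libraries. Rps4l has its mutant points below its WT points in all 6 sets, while Ankle1 and Gm42047 are set apart upwards only in untreated and doxorubicin HSPCs.

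Counted by set, both mutant libraries lay on one side of both WT libraries for 5 of the 6 genes in untreated HSPCs (3 above, 2 below), where 24.2% of all tested genes had both mutant libraries above and 15.2% both below. In doxorubicin HSPCs the count was 5 (3 above, 2 below), against 29.0% and 17.5% of all genes. It was 4 in 2-week HSPCs (2 above, 2 below; 11.9% and 20.4% of all genes) and 3 at 20 weeks (1 above, 2 below; 14.4% and 11.6%). In B cells it was 3 (2 above, 1 below; 20.5% and 20.8%), and in T-labelled libraries 6 (1 above, 5 below; 12.7% and 24%). By an edgeR adjusted p under 0.05, 0.0% of all genes differed between the genotypes in untreated, 0.0154% in doxorubicin, 0.138% in 2-week and 0.00512% in 20-week HSPCs. These counts restate the choice of the genes and are read no further. Over the 16386 genes kept in both the HSPC fit and the B and T fit, 9 genes, or 0.0549%, had both mutant libraries lower in all 6 sets, Rps4l among them, and 1 gene, or 0.0061%, had both higher. For Rps4l this too restates its choice, and the number of such genes expected without a genotype difference was not computed.

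**Figure D2:**
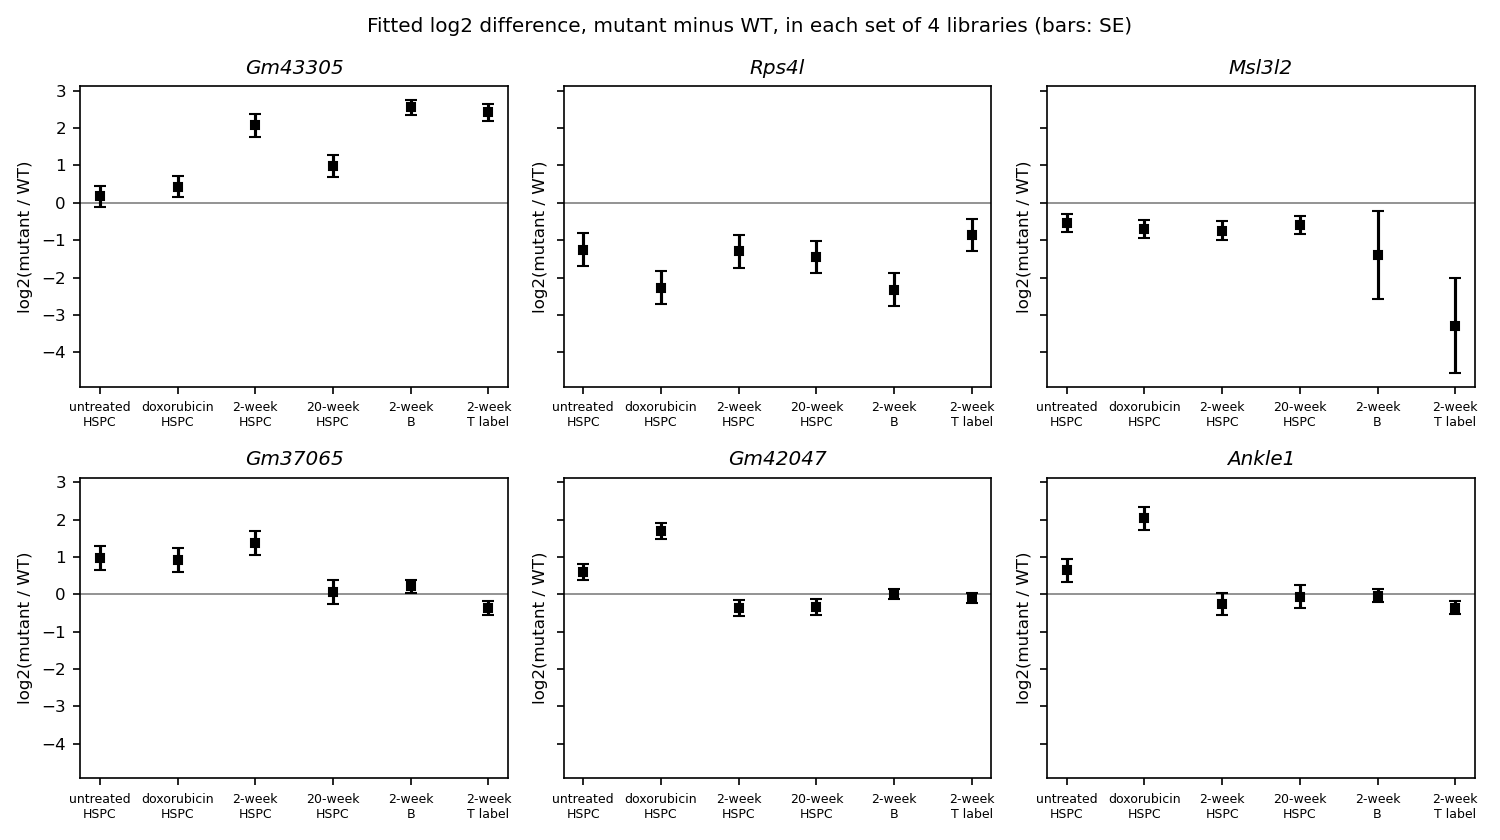
Fitted log2 difference, mutant minus WT, of each gene in each set of 4 libraries (edgeR), with the SE as bars and 0 as the grey line. Gm43305 lies highest in the 3 sets from 2 weeks, with 2.07 to 2.56, and Ankle1 and Gm42047 in the doxorubicin set, with 2.03 and 1.69.

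The levels across cell labels and conditions were not used to choose the genes, and they were compared between sets averaged over the genotypes. B cells had the highest mean level of 4 of the 6 genes. On the scale of CPM per kilobase of exon, which allows genes to be set side by side, the mean of the 4 B cell libraries was 43.6 for Gm42047, 32.1 for Gm37065, 22.9 for Ankle1 and 10.4 for Gm43305. Rps4l was highest in 2-week HSPCs, at 6.37, with B cells next at 5.02, and Msl3l2 in untreated HSPCs, at 6.16. The lowest means were in T-labelled libraries for Gm43305 (0.834) and Gm37065 (1.52), in B cells for Msl3l2 (0.308), and in 20-week HSPCs for Ankle1 (1.98), Gm42047 (4.21) and Rps4l (2.53). The related genes Rps4x, Msl3 and Ankle2 had medians over the 24 libraries of 1350, 29.8 and 17.8 on this scale, against 3.08, 3.85 and 6.78 for Rps4l, Msl3l2 and Ankle1. All 6 genes had counts in all 24 libraries and passed the low-count filter in each fit.

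B cells differed from 2-week HSPCs in 5 of the 6 genes (edgeR quasi-likelihood test, adjusted p under 0.05 over all genes tested), where 53.9% of all genes passed. Gm37065 rose from a mean of 4.72 CPM in 2-week HSPCs to 68.0 in B cells, a log2 difference of 4.11 ± 0.18 (SE; adjusted p = 2.61e-10). Gm43305 rose from 5.72 to 52.4 CPM, by 3.15 ± 0.17 on the log2 scale (adjusted p = 1.89e-09), in WT libraries alone by 2.88 and in mutant ones by 3.43. Ankle1 rose by 1.80 ± 0.19 (adjusted p = 4.3e-06) and Gm42047 by 1.33 ± 0.15 (adjusted p = 1.1e-05). Msl3l2 was the member that fell, from 6.98 to 0.659 CPM, with a log2 difference of -3.37 ± 0.64 (adjusted p = 0.000442). Rps4l did not pass (-0.49 ± 0.32, adjusted p = 0.215). Erythroid genes took 0.564% to 1.51% of the counts in B cell libraries and 0.024% to 0.095% in 2-week HSPCs. Neutrophil genes took 0.331% to 1.19% and 0.54% to 0.916%. The part of these cell mixtures in the 5 calls was not tested. All 5 calls held with each of the 12 libraries of the 2-week fit left out in turn and within each genotype.

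B cells differed from T-labelled libraries in 4 of the 6 genes, where 60.0% of all genes passed and the median log2 difference of all genes was 0.17. Gm37065 was higher in B cells by 3.72 ± 0.14 on the log2 scale (edgeR, adjusted p = 1.45e-11), Gm43305 by 2.87 ± 0.15 (adjusted p = 6.2e-10), Gm42047 by 1.26 ± 0.10 (adjusted p = 4.07e-08) and Ankle1 by 1.02 ± 0.12 (adjusted p = 4.97e-06). Rps4l (-0.35 ± 0.30, adjusted p = 0.334) and Msl3l2 (-0.14 ± 0.86, adjusted p = 0.908) did not pass; the mean CPM of Rps4l was higher in B cells, 4.74 against 2.91, while its fitted value was below 0. The 4 calls held with each of the 8 libraries left out.

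T-labelled libraries differed from 2-week HSPCs in 3 of the 6 genes, where 61.9% of all genes passed. Msl3l2 fell from 6.98 to 0.703 CPM, with a log2 difference of -3.23 ± 0.65 (edgeR, adjusted p = 0.00054); in WT libraries alone it did not pass (-2.01, adjusted p = 0.0645). The other differences depend, in size or sign, on whether the libraries are scaled. The TMM scaling factors were 0.67 to 0.73 in T-labelled libraries and 1.22 to 1.29 in 2-week HSPCs. Ankle1 was higher by 0.79 ± 0.19 in the fit (edgeR, adjusted p = 0.00272), although its mean CPM was 18.0 in T-labelled libraries and 18.5 in HSPCs. The Ankle1 call also held in WT (0.79, adjusted p = 0.0273) and in mutant libraries alone (0.80, adjusted p = 0.0256). Gm37065 was higher in the fit by 0.40 ± 0.17 (adjusted p = 0.0481), while its mean CPM was lower, 3.21 against 4.72. That call held in 3 of 12 fits with 1 library left out (log2 0.28 to 0.56), and the log2 difference was 1.22 in WT and -0.41 in mutant libraries alone. Gm43305 (0.29 ± 0.17), Gm42047 (0.07 ± 0.15) and Rps4l (-0.13 ± 0.32) did not pass (adjusted p = 0.139, 0.71 and 0.767), although without WT 2-week HSPC replicate 1 Gm42047 did, at 0.30.

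The 2-week, 20-week and doxorubicin HSPCs were each set against the same 4 untreated libraries. The 2-week HSPCs differed from untreated HSPCs in 5 of the 6 genes, where 46.1% of all genes passed and the median log2 difference of all genes was -0.14. Gm43305 fell from a mean of 27.8 to 5.72 CPM, a log2 difference of -2.53 ± 0.21 (edgeR, adjusted p = 3.38e-08). This was -3.48 in WT and -1.58 in mutant libraries alone. Gm37065 fell by 1.07 ± 0.23 on the log2 scale (adjusted p = 0.00075) and Msl3l2 by 0.86 ± 0.17 (adjusted p = 0.000464). Rps4l rose from 2.50 to 6.01 CPM, by 1.33 ± 0.31 (adjusted p = 0.00178), with 1.35 in WT and 1.30 in mutant libraries alone. Gm42047 rose by 0.57 ± 0.15 (adjusted p = 0.00499), a call that was lost without WT 2-week replicate 1 (0.34, adjusted p = 0.0626), the library with the highest Gm42047 level among 2-week HSPCs. In mutant libraries alone the Gm42047 difference was 0.09 (adjusted p = 0.784). Ankle1 did not pass (-0.08 ± 0.21, adjusted p = 0.802). Marker lists moved in the same comparison: HSPC genes took 0.116% to 0.162% of the counts at 2 weeks and 0.278% to 0.352% in untreated libraries, and B cell genes 0.35% to 0.836% against 1.27% to 2.35%. Neutrophil genes took 0.54% to 0.916% at 2 weeks, against 0.0301% to 0.0493% in 3 untreated libraries and 2.13% in WT replicate 1. The part of these marker list differences in the 5 calls was not tested.

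The 20-week HSPCs were lower than untreated HSPCs in 3 of the 6 genes, where 23.6% of all genes passed. Ankle1 fell from 21.1 to 5.05 CPM (log2 difference -1.67 ± 0.21, edgeR adjusted p = 3.87e-05), Gm42047 from 78.6 to 23.8 CPM (-1.34 ± 0.15, adjusted p = 1.65e-05) and Gm43305 from 27.8 to 10.1 CPM (-1.18 ± 0.20, adjusted p = 0.000436). In mutant libraries alone Gm43305 was lower by 0.78 without passing (adjusted p = 0.073). Rps4l, Msl3l2 and Gm37065 had log2 differences of 0.24 ± 0.31, -0.23 ± 0.17 and -0.49 ± 0.22 (adjusted p = 0.627, 0.362 and 0.12). Without WT untreated replicate 1, the library with neutrophil transcripts, the counts of calls were again 5 at 2 weeks and 3 at 20 weeks. B cell genes took 4.77% to 9.28% of the counts at 20 weeks and 1.27% to 2.35% in untreated libraries, plasma cell genes 1.11% to 1.67% against 0.345% to 0.684%, and HSPC genes 0.197% to 0.234% against 0.278% to 0.352%; their part in the 3 calls was not tested.

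Doxorubicin changed 0 of the 6 genes beyond the threshold when averaged over the genotypes, in a comparison in which 3 of 19522 genes, or 0.0154%, passed in edgeR, 95 in DESeq2, and 1163 had an unadjusted p under 0.05. The log2 differences, doxorubicin minus untreated, ran from -0.31 ± 0.21 for Ankle1 (adjusted p = 0.9) to 0.47 ± 0.20 for Gm43305 (adjusted p = 0.832). For Ankle1 the average joins a value of -1.01 in WT and 0.38 in mutant libraries, and for Gm42047 -0.28 in WT and 0.82 in mutant libraries; none of these 4 passed (adjusted p = 0.6, 1.0, 0.877 and 1.0).

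**Figure D3:**
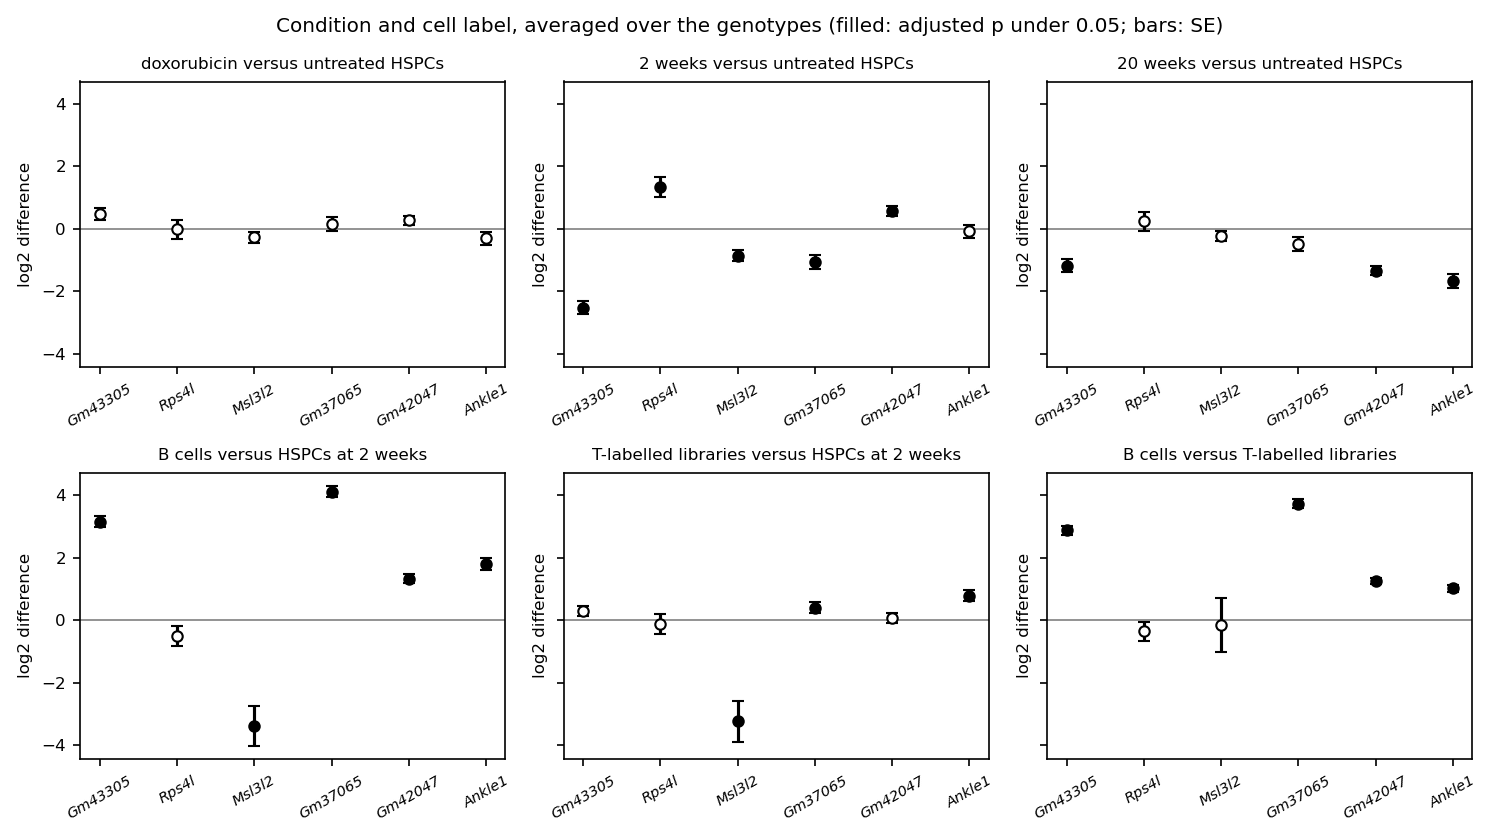
Log2 difference of each gene between conditions or cell labels, averaged over WT and mutant libraries, with the SE as bars; filled points passed an edgeR adjusted p of 0.05. Gm37065 and Gm43305 rise most in B cells, and Msl3l2 lies below 0 by more than 3 in both the B cell and the T-labelled panel against 2-week HSPCs.

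Genes near the 6 members were examined, by position alone, for a difference between mutant and WT. Of 112 genes tested within 500 kb of a member, 1 was higher and 0 were lower in the mutant over the 4 HSPC conditions (edgeR, adjusted p under 0.05), where 0.133% of all genes passed; 15 had an unadjusted p under 0.05, as did 9.88% of all genes. The median log2 difference of the 112 was 0.05, and that of all genes -0.01. In B cells 0 of 110 passed, where 0.641% of all genes did, and in T-labelled libraries 0 of 110, where 0.0114% did. An unadjusted p under 0.05 was reached by 10 of them in B cells, where 11% of all genes reached it, and by 7 in T-labelled libraries, where 5.72% did. DESeq2 called 2 neighbours in HSPCs, 0 in B cells and 0 in T-labelled libraries, and 1.66%, 1.94% and 0.137% of all genes.

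The neighbour that passed was Slamf6, a receptor of the SLAM family on lymphoid cells. Its gene, at chr1:171745082-171780737 on the plus strand, overlaps the body of Gm37065 by 1842 bases on the opposite strand, and their exons do not overlap. Slamf6 was at 62.6 and 69.8 CPM in WT and 79.3 and 114 in mutant untreated HSPCs, at 62.9 and 73.8 against 122 and 154 after doxorubicin, at 19.6 and 27.0 against 45.7 and 36.8 at 2 weeks, and at 49.0 and 46.3 against 52.5 and 36.5 at 20 weeks. The log2 difference over the 4 conditions was 0.55 ± 0.10 (SE; adjusted p = 0.046). It passed in 6 of 16 fits with 1 library left out (adjusted p from 0.00813 to 0.145). The call was lost without either WT library of the doxorubicin or 20-week HSPCs, replicate 1 of the WT untreated, WT 2-week, mutant 2-week or mutant 20-week HSPCs, or replicate 2 of the mutant untreated or mutant doxorubicin HSPCs, and also with the replicate number as a block (adjusted p = 0.0582). Like Gm37065, whose fitted difference was 0.82 ± 0.16, Slamf6 overlapped between genotypes at 20 weeks, and it was highest in B cells, at 302 and 339 CPM in WT and 410 and 409 in mutant libraries. Reads were counted by strand, per the file headers.

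Rps4l and Msl3l2 each lie inside the body of a longer gene on the opposite strand, with no exon in common: Tmtc1, at chr6:148133928-148345887, and Tbc1d32, at chr10:55890389-56104785. Tmtc1 had a log2 difference of 0.62 ± 0.21 over the HSPC conditions (edgeR, adjusted p = 0.304), opposite in sign to that of Rps4l, and Tbc1d32 one of -0.28 ± 0.16 (adjusted p = 0.617). The genes next to Ankle1 were Babam1 (-0.03 ± 0.07, adjusted p = 0.989), 1.4 kb away and part of the BRCA1-A complex at DNA breaks, and Abhd8 (-0.19 ± 0.12, adjusted p = 0.664). Next to Gm42047 was Klhdc4 (0.13 ± 0.09, adjusted p = 0.688) at 3.7 kb, and next to Gm43305 was Abhd4 (-0.26 ± 0.08, adjusted p = 0.223) at 21.8 kb. Vangl2, at 81.6 kb from Gm37065, had -0.05 ± 0.10 (adjusted p = 0.963), and Ipo8, at 415.1 kb from Rps4l, -0.02 ± 0.08 (adjusted p = 1.0).

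**Figure D4:**
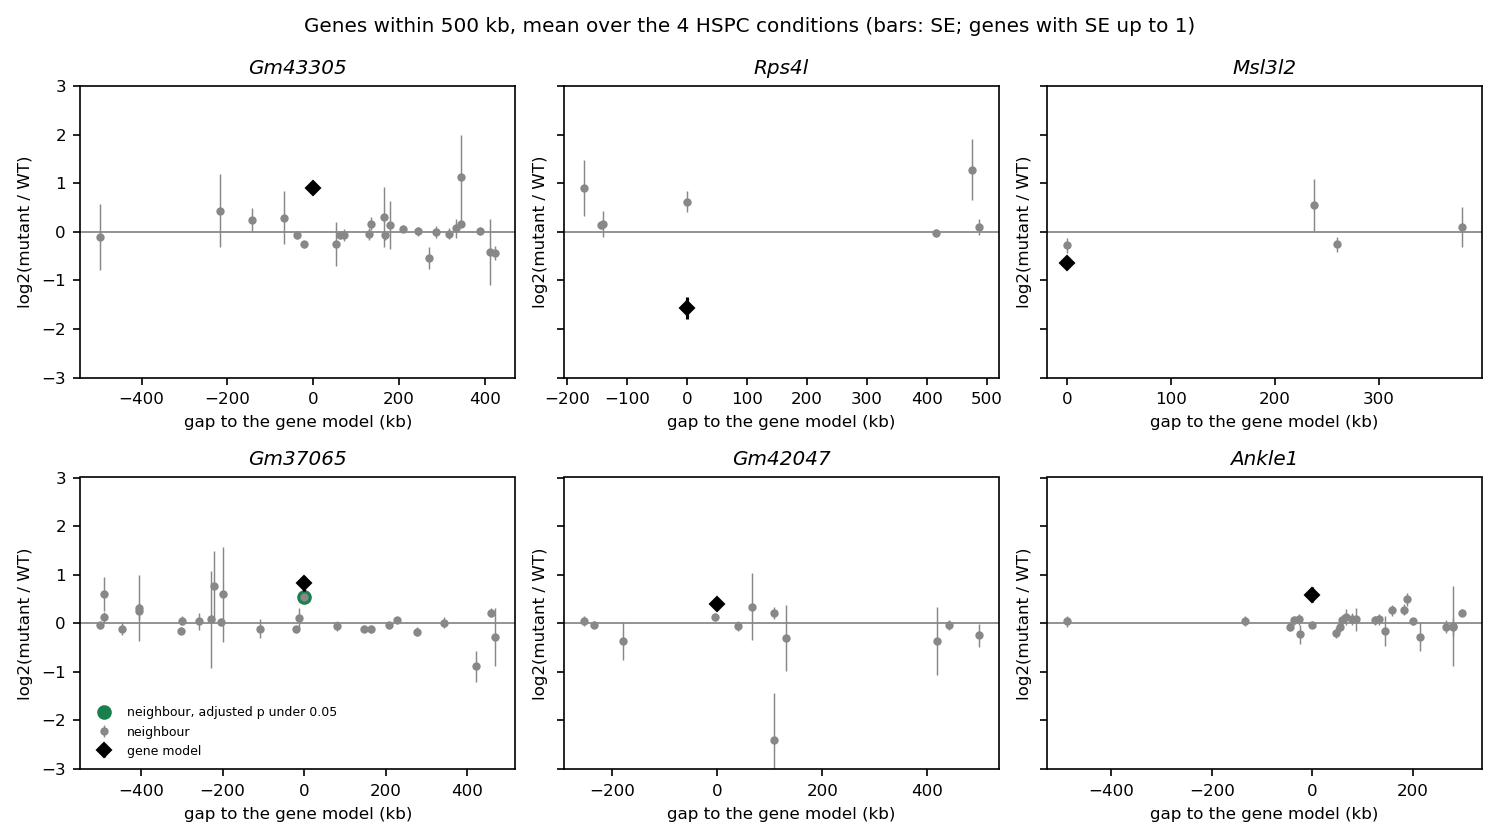
Fitted log2 difference, mutant minus WT, over the 4 HSPC conditions for genes within 500 kb of each member, against the gap between the gene bodies in kb (0 for overlapping genes), with the SE as bars; the 100 genes with an SE up to 1 are drawn and 12 are left out. The members are black diamonds; Slamf6, in green in the Gm37065 panel, is the neighbour that passed, at 0.55.

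Families related to the named members were compared in the same way. Of 33 small ribosomal subunit protein genes, the family of Rps4x, 0 passed in either direction over the HSPC conditions, with 1 at an unadjusted p under 0.05, which 9.88% of all genes had, and a median log2 difference of 0.07, against -0.01 for all genes. In B cells 0 of the 33 passed, with 7 at an unadjusted p under 0.05, which 11% of all genes had, and a median of -0.21, against -0.01 for all genes. Values were above 0 for 32 of the 33 in the mean over the HSPC conditions, where 48.8% of all genes were, and for 1 in B cells, where 47.7% were, also with RLE scaling. In 2-week HSPCs alone 10 were above 0 and 23 below (11 and 22 with RLE scaling), with a median of -0.07. The 33 genes were read in the same libraries, so their signs are not separate observations. Rps4x itself had log2 differences of 0.04 ± 0.09 over the HSPC conditions, -0.14 ± 0.12 in B cells and 0.08 ± 0.12 in T-labelled libraries (edgeR, adjusted p = 0.983, 0.729 and 0.962), whereas Rps4l had -1.57, -2.33 and -0.86.

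Of 7 genes for MSL complex subunits and MRG domain proteins 0 passed in HSPCs (median 0.06; 0 at an unadjusted p under 0.05), and Msl3 had -0.04 ± 0.08 (edgeR, adjusted p = 0.965). Of 15 tested genes for LEM domain proteins, lamins and nucleases that cut DNA junctions 0 passed either (median 0.05; 3 at an unadjusted p under 0.05), and Ankle2, a LEM domain protein of the nuclear envelope, had 0.05 ± 0.08 (adjusted p = 0.935). Over the 3 lists the lowest adjusted p was 0.322 in HSPCs, 0.329 in B cells and 0.827 in T-labelled libraries. DESeq2 called 0 of the 55 genes in each, and an unadjusted p under 0.05 in edgeR was reached by 4, 9 and 1 of them, against 9.88%, 11% and 5.72% of all genes.

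The members were also compared with each other and with all other genes by the deviation of each library from the mean of its set of 4, on the scale of log2(CPM + 1). Across the 24 libraries Ankle1 and Gm42047 had a Pearson correlation of 0.92 (Spearman 0.80), and 0.86 without the 2 libraries in which Gm42047 deviated most. Each of these values includes the genotype difference by which both genes were chosen, so none of them is a separate sign of likeness. The difference between the 2 libraries of each group, which the choice of genes did not use, had the same sign for Ankle1 and Gm42047 in 8 of 12 groups, as it had in 4 of the other 14 pairs of members. The uncentred correlation of these differences was 0.67 for Ankle1 and Gm42047, and 0.34 without the 2 groups in which Gm42047 differed most, so it rests in part on those groups. The value farthest from 0 among the 15 pairs was that of Gm43305 and Gm37065, -0.68, and -0.76 without 2 groups, with the same sign in 3 of 12. Rps4l and Msl3l2 formed separate clusters by genotype, so no correlation over all libraries is given; their differences within groups had the same sign in 8 of 12 and an uncentred correlation of 0.37, which was -0.16 without the 2 groups of largest difference. These points share library depth and composition.

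**Figure D5:**
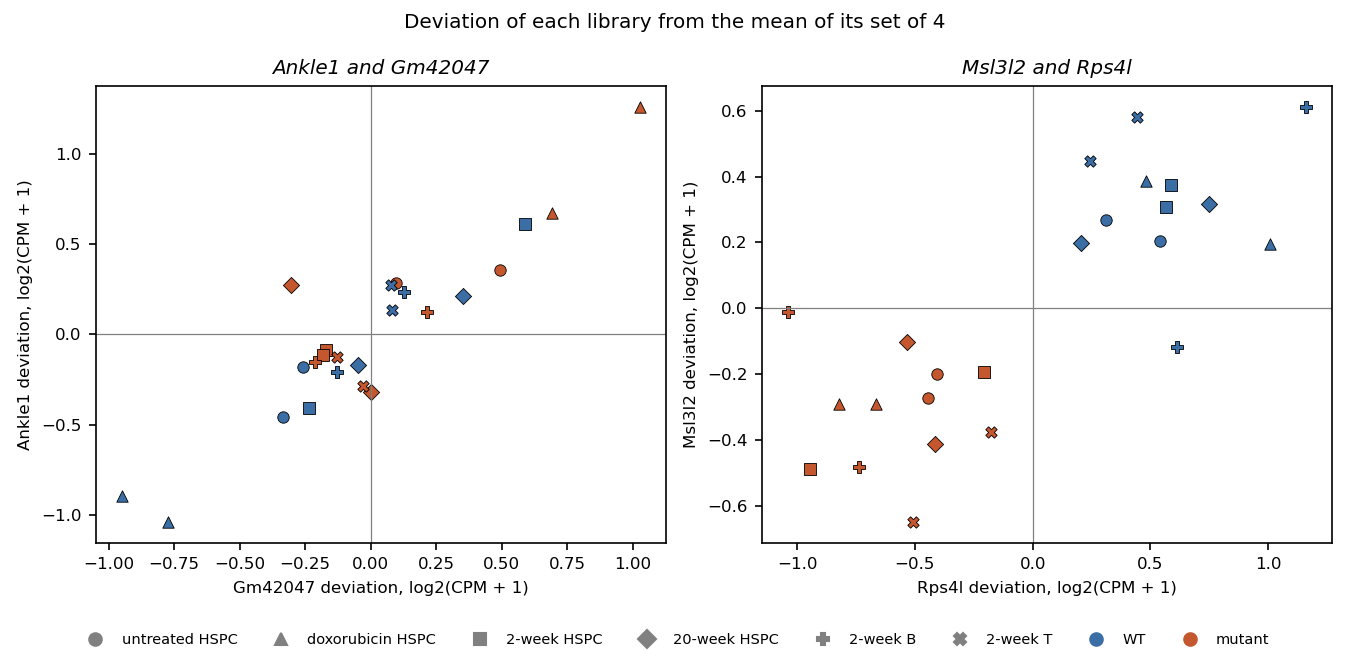
Deviation of each of the 24 libraries from the mean of its set, in log2(CPM + 1), for Ankle1 against Gm42047 and for Msl3l2 against Rps4l; color gives the genotype and the symbol the set. The doxorubicin libraries take both ends of the Ankle1 plot, and the Rps4l plot splits into a WT and a mutant cluster.

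The genes most alike by this measure, out of 16380 searched, were Neil3 (0.96), a DNA glycosylase that acts on oxidised bases and crosslinks, and Rsrp1 (0.94) for Ankle1, and Tubgcp3 (0.93), a gamma-tubulin complex component, and Gm27010 (0.91) for Gm42047. For Rps4l they were the gene model ENSMUSG00000118662 (0.89) and As3mt (0.88), an arsenic methyltransferase. Both of these were among the 9 genes lower in the mutant in all 6 sets. For Msl3l2 they were Trim35 (0.84), also one of those 9, and C1qtnf6 (0.82). For Gm37065 they were its neighbour Slamf6 (0.88) and Arntl (0.85), a clock transcription factor, and for Gm43305 Flvcr1 (0.83), a membrane transporter, and Glyr1 (0.79). The measure includes the genotype difference by which the members were chosen, so a high value says in part that the other gene differed between the genotypes too.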

How the data were processed

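RNA was sequenced in 24 libraries. The deposited values are counts, whole fragments assigned to each gene by featureCounts 2.0.1 (paired, reverse stranded, exons of GENCODE M28, per the file headers). Per the submitters' processing notes FastQC, STAR and Subread were used, no version being stated; mm10 and mm39 are both listed, and gene positions in the deposited tables match GRCm39. No source used here states trimming or alignment settings. The extraction protocol names 30000 sorted HSPCs for all 24 libraries, B and T labels included, per the labels' protocols. Per the file headers no option to count multi-mapped or overlapping reads was set, which lowers counts in repeated sequence.

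Symbols were found in GENCODE M21 for 52081 of 55414 gene IDs. The 6 members and all gene lists were chosen with earlier results of these data known. CPM were computed from the library totals of 26369992 to 78432483 counts, at which 3 counts, a limit that covers counting error only, are 0.0382 to 0.114 CPM. Genes were filtered with filterByExpr (minimum 10 counts, total 15), scaled by TMM and fitted by robust quasi-likelihood in edgeR 4.0.16 (R 4.3.3) with 1 mean per group, for 16 HSPC, 8 B and T, and 12 2-week libraries (19522, 17484 and 19018 genes). Condition and cell label contrasts average the genotypes. Each SE is the absolute log2 difference divided by the square root of its quasi-likelihood F statistic. A gene passed where its Benjamini-Hochberg adjusted p, taken over every gene tested, was under 0.05. Neighbours are genes within 500 kb in the files' coordinates. The fit was tested on simulated data with the same spread for all genes and changes placed only in genes with higher counts. That test does not cover genes with few counts.

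Named genes are the members, the 2 genes most alike each, neighbours that passed or else the nearest kept genes, Rps4x, Msl3, Ankle2, Srcap and cell markers; Tmtc1, Tbc1d32 and Lmna fall outside this rule and were added after their values were seen. Of the nearest genes, Gm26812, Gm10521, 4732416N19Rik and 5330426L24Rik, models without a name, are listed here only, and 1 is not reported here. Alternatives were DESeq2 1.42.0, RLE factors, no filter, a replicate block, only the groups compared, 1 genotype, other neighbour distances, and leaving out each library. Promoters came from RefSeq (GRCm38.p6), and transcripts were aligned with Biopython 1.88.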

Additional observations from a re-analysis of the deposited data

Results flagged for a closer look

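Gm37065, Gm42047 and Ankle1 each had both mutant libraries above both WT libraries in some sets and both below in the T-labelled set. For Gm37065 the ratio of mean CPM, mutant over WT, was 1.97 in untreated, 1.96 in doxorubicin and 2.52 in 2-week HSPCs and 1.16 in B cells, but 0.738 in T-labelled libraries. For Gm42047 it was 1.53 in untreated and 3.36 in doxorubicin HSPCs and 0.895 in T-labelled libraries. For Ankle1 it was 1.59 in untreated and 4.27 in doxorubicin HSPCs and 0.742 in T-labelled libraries. Fitted log2 differences in T-labelled libraries were -0.37 ± 0.19 (SE) for Gm37065, -0.09 ± 0.13 for Gm42047 and -0.36 ± 0.17 for Ankle1. The differences between these sets were not tested. Neutrophil transcripts took 12.2% to 14.2% of the counts in the T-labelled libraries and at most 2.13% in any HSPC library, and their part in these values was not tested.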

How the results depend on the processing

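The counts of members that passed between conditions or cell labels stayed within 1.5 times under all alternatives run. Leaving out each library gave 0 for doxorubicin, 4 to 5 at 2 weeks, 3 at 20 weeks, 5 for B cells and 2 to 3 for T-labelled libraries against HSPCs, and 4 for B cells against T-labelled libraries. For neighbours in HSPCs the count of 1 became 2 in DESeq2, 3 with no filter, 0 with the replicate block, and 0 to 2 as single libraries were left out. In B cells it became 1 with no filter, with the replicate block and within 1000 kb, and 0 to 1 with libraries left out, and in T-labelled libraries 1 with no filter. Related genes in T-labelled libraries went from 0 to 1, Lmna, with no filter and with the replicate block. Same-numbered libraries deviated together at correlations of -0.10 to 0.12 between genotypes, and of -0.23 to 0.14 between sets within a genotype. The numbers were therefore not taken as pairs. The replicate block changed no other count by over 1.5 times but ended the Gm37065 call between T-labelled libraries and HSPCs (3 members called, then 2). RLE factors (0.36), DESeq2 (0.36), no filter (0.40) and only the groups compared (0.32) ended that call too.

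Some log2 differences changed sign. In WT libraries alone Rps4l had 0.49 for doxorubicin, 0.39 for B cells against T-labelled libraries and 0.00 against HSPCs, Gm42047 had -0.28 for doxorubicin and -0.12 for T-labelled libraries against HSPCs, and Ankle1 0.37 at 2 weeks. In mutant libraries alone Rps4l had 0.15 for T-labelled libraries against HSPCs, Msl3l2 0.81 for B cells against T-labelled libraries, Gm37065 -0.41 for T-labelled libraries against HSPCs, and Ankle1 0.38 for doxorubicin. With only the groups compared, Gm42047 had -0.01 for T-labelled libraries against HSPCs. With single libraries left out, Rps4l ran from -0.20 to 0.12 for doxorubicin and from -0.32 to 0.13 for T-labelled libraries against HSPCs, Msl3l2 from -0.78 to 1.19 for B cells against T-labelled libraries, Gm42047 from -0.10 to 0.30 for T-labelled libraries against HSPCs and from -0.10 to 0.00 for mutant against WT T-labelled libraries, and Ankle1 from -0.38 to 0.13 at 2 weeks. Among these the Gm37065 value was the one called. The causes were not tested. A group left with 1 library is assumed to vary like the others. Msl3l2 in B cells and T-labelled libraries, with 14 to 113 counts per group of 2 libraries, is limited by depth.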
